A study of Mus musculus with 3 samples.

Results

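The mRNAs examined here are the cyclin-dependent kinase genes Cdk4, Cdk6, Cdk2 and Cdk1 and the inhibitor genes Cdkn1a, Cdkn1b, Cdkn1c, Cdkn2c, Cdkn2d and Cdkn2a. These 10 genes, of 19744 in the count tables, were chosen by name for their place in the cell cycle, and all 10 were listed. They were measured by Drop-seq, a droplet method that counts the 3′ ends of polyadenylated mRNA as unique molecular identifiers (UMIs) per cell barcode. The 3 samples are medulloblastomas of separate mice, all of 1 group, POx-palbo. Every mouse carried hGFAP-Cre and SmoM2 on a C57BL/6 background (the G-Smo model), in which Cre driven by the human GFAP promoter, active in neural stem cells of the developing brain and their descendants, turns on an activated form of the Hedgehog pathway protein Smoothened. Every mouse had also been injected intraperitoneally once a day for 5 days, from postnatal day 10, with 25 mg/kg of the CDK4 and CDK6 inhibitor palbociclib carried in polyoxazoline nanoparticles, and tumours were taken on postnatal day 16. Untreated tumours are not analysed here, so the values below describe treated tumours and show no effect of the drug.

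CDK4 and CDK6 join D-type cyclins and phosphorylate the retinoblastoma protein, which frees E2F factors and starts the passage from G1 into S phase. CDK2, with cyclins E and A, carries cells into and through S phase, and CDK1, with cyclins A and B, drives entry into mitosis. INK4 proteins, encoded here by Cdkn2a, Cdkn2c and Cdkn2d, bind CDK4 and CDK6 themselves, whereas the CIP/KIP proteins p21 (Cdkn1a), p27 (Cdkn1b) and p57 (Cdkn1c) bind cyclin and kinase complexes more widely. In the cerebellum p27 is known to restrain the division of granule neuron progenitors, the cells from which Hedgehog-driven medulloblastoma arises. mRNA counts measure none of the kinases' activity.

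Of the 10 genes, 9 had promoter entries in RefSeq (assembly GRCm38.p6), 12 windows in all with 2 each for Cdkn1a, Cdkn2a and Cdkn2c, and Cdkn1c was the gene without. The promoters of Cdk1, Cdk4 and Cdk6 are shown because these genes gave the clearest differences between sets of barcodes and the highest kinase levels in the results that follow. Each runs 5′ to 3′ on the gene's own strand, 250 bases before to 50 bases after the annotated start. Capitals mark every match, on either strand, to 3 motifs: the CCAAT box, spelled CCAAT, the cell cycle genes homology region, TTTGAA, and the E-box, CACGTG. The Cdk1 promoter is chr10:69352863-69353162 on the minus strand, the Cdk4 promoter chr10:127063285-127063584 on the plus strand, and the Cdk6 promoter chr5:3343643-3343942 on the plus strand.
Cdk1: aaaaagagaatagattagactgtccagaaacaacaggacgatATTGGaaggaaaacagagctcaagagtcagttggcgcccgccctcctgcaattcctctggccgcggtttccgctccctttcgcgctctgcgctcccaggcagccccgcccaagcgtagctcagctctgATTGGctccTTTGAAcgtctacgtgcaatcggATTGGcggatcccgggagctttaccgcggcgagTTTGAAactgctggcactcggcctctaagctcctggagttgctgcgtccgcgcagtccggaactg
Cdk4: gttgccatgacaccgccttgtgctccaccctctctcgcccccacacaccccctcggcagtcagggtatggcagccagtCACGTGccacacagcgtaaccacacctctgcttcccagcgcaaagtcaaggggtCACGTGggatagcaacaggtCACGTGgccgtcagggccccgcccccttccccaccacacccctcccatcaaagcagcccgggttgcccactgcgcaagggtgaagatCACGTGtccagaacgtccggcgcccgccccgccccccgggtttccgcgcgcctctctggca
Cdk6: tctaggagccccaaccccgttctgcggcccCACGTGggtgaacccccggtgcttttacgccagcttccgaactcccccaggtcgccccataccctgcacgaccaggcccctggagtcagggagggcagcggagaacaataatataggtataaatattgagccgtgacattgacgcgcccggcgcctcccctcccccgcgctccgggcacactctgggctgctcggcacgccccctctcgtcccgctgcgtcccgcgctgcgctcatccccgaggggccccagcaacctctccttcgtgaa
The Cdk1 window held 2 matches to TTTGAA, 71 and 15 bases before the start, and 3 to CCAAT, all on the other strand. TTTGAA occurs in 17.9% and CCAAT in 37.4% of the 32851 mouse promoters of the same length, and none of the other 11 windows held TTTGAA. The CCAAT box was also matched 3 times in the Cdkn1b window and once in those of Cdk2 and Cdkn2d and in 1 of the 2 windows of Cdkn2a and of Cdkn2c. The Cdk4 window held 4 matches to CACGTG and the Cdk6 window 1, as did 1 of the 2 Cdkn2c windows, and 7.15% of all promoters hold any. No match overlapped another, and a match in the letters is not evidence of a bound site.

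The tables held 8827, 2330 and 9802 barcodes in tumours 1, 2 and 3, with totals of 1150463, 248617 and 1324350 counts. Depth was low, and 1060, 148 and 1059 barcodes held 200 counts or more. Tumour 2 stood apart, with 11.4% mitochondrial counts against 3.97% in tumour 1 and 5.61% in tumour 3. The tests between sets were therefore also run without it, while means and SDs over tumours include it. The tumours shared 3 to 8 barcode sequences by pair. Markers of granule progenitors (10 of 10 detected in every tumour) made up 0.364% to 0.424% of counts. Myeloid, astrocytic, oligodendrocytic and vascular lists were present in every tumour at 0.0258% to 0.155% of counts each.

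Cdk4, Cdkn1b and Cdk6 supplied most of the kinase and inhibitor mRNA, and Cdkn2a was close to undetected. Because each UMI counts 1 tagged 3′ end, counts per 1000000 of the tumour's total (CPM) were compared between genes with no division by transcript length. Cdk4 had 667, 374 and 604 CPM in tumours 1, 2 and 3, from 767, 93 and 800 counts. Its mean of 548 ± 154 CPM (SD, n = 3) placed it 196th of all genes in the tables. Cdk4 was high in tumours 1 and 3 and lowest in tumour 2. Cdk6, its close relative, had 341, 185 and 165 CPM and a mean of 230 ± 96.1 CPM (SD, n = 3), rank 746. Tumour 1 alone was high for Cdk6, and its exact 95% Poisson interval did not meet those of the other tumours. In the total of every tumour there was more Cdk4 than Cdk6, by 1.96 times (95% interval 1.73 to 2.22) in tumour 1, 2.02 times (1.41 to 2.94) in tumour 2 and 3.65 times (3.14 to 4.26) in tumour 3. In the barcodes of tumour 1 with at least 200 counts the kinases were level, at 222 Cdk4 and 221 Cdk6 counts. All intervals given for counts and shares cover counting error only.

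The S phase and mitotic kinases were lower. Cdk1 had 103, 56.3 and 126 CPM in tumours 1, 2 and 3 (mean 95.0 ± 35.5, SD, n = 3), and Cdk2 had 54.8, 32.2 and 44.6 CPM (mean 43.8 ± 11.3, SD, n = 3). Both were lowest in tumour 2, where only 14 Cdk1 and 8 Cdk2 counts were seen. Cdk1 exceeded Cdk2 by 1.87 times (1.37 to 2.59) in tumour 1 and 2.83 times (2.09 to 3.88) in tumour 3, and in tumour 2 the interval of 0.685 to 4.81 times included equality. In barcodes of at least 200 counts the ratio was 1.19 in tumour 1, from 25 against 21 counts, and 4.0 in tumour 3, from 56 against 14.

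Among the CIP/KIP inhibitors, p27 mRNA led. Cdkn1b had 338, 382 and 338 CPM in tumours 1, 2 and 3, a mean of 353 ± 25.4 (SD, n = 3), rank 407. In tumour totals Cdkn1b varied least of the 10 genes in relation to its mean. Cdkn1a, the p53 target that encodes p21, had 49.5, 68.4 and 41.5 CPM. Cdkn1b counts were 6.82, 5.59 and 8.15 times those of Cdkn1a. Cdkn1c, an imprinted gene, had 14.8, 0 and 22.7 CPM, and the 0 counts in tumour 2 allow up to 12.1 CPM (3 counts of the total, the limit used here for every count of 0).

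The INK4 inhibitors were sparse. Cdkn2d (p19INK4d) had 86.1, 64.4 and 63.4 CPM and Cdkn2c (p18INK4c), a known suppressor of mouse medulloblastoma, had 56.5, 28.2 and 64.9 CPM. Cdkn2c had fewer counts than Cdkn2d in tumour 1, at 0.657 times (0.473 to 0.907), whereas the intervals in tumour 2 (0.152 to 1.12) and tumour 3 (0.749 to 1.4) included 1. Cdkn2a, whose locus encodes p16INK4a and ARF from transcripts that share their 3′ end, had 1, 3 and 4 counts in the 3 tumours. Those counts are near the limit that a count of 0 allows (3 counts), and 1 of the 8 lay in a barcode of at least 200 counts.

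In order of mean level the genes ran Cdk4, Cdkn1b, Cdk6, Cdk1, Cdkn2d, Cdkn1a, Cdkn2c, Cdk2, Cdkn1c and Cdkn2a. Cdk4 was not above Cdkn1b in every tumour, since tumour 2 had 93 Cdk4 and 95 Cdkn1b counts. Cdkn1b and Cdk6 also overlapped, in tumour 1. Cdk6 lay above Cdk1 without overlap, and the 5 genes from Cdk1 to Cdk2 overlapped their neighbours. Cdkn1c lay below Cdk2 without overlap, and overlapped Cdkn2a. Added together, Cdk4 and Cdk6 reached 779 ± 224 CPM, the CIP/KIP genes 418 ± 27.7, Cdk1 and Cdk2 139 ± 44.1 and the INK4 genes 126 ± 19.9 (SD, n = 3 each). In a tumour sum, fewer cells that use a gene and less of its RNA per cell cannot be told apart. In the mouse annotation Cdk2 lies within the span of Pmel, the ends of Cdk4 and Tspan31 overlap, and noncoding genes overlap Cdk6. The strand used in counting is not given in the sources used here, so reads in those stretches could belong to either gene.

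**Figure D1:**
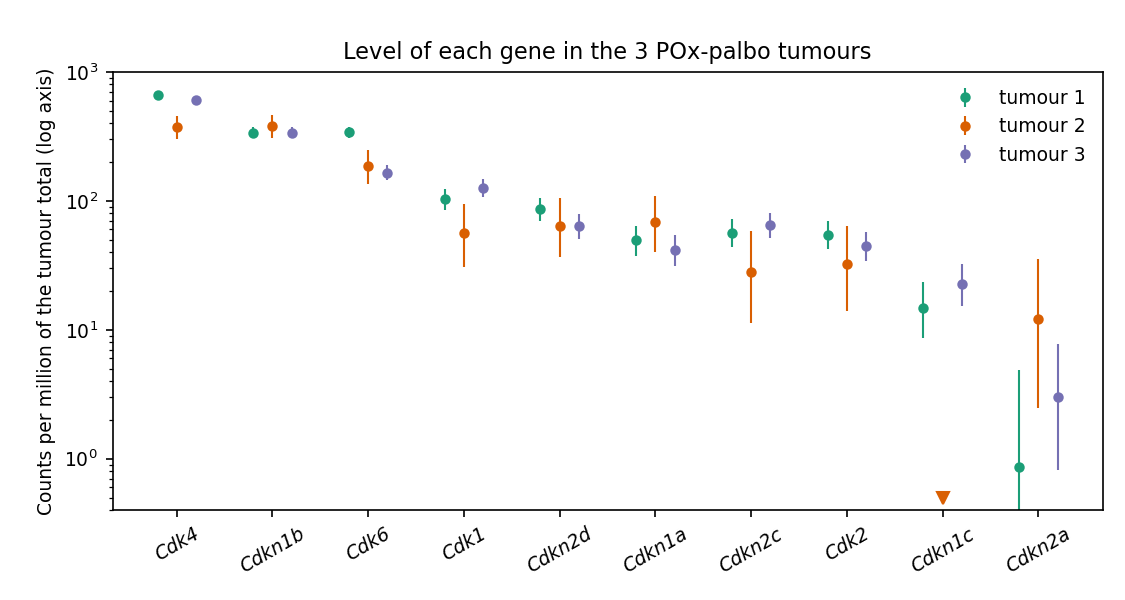
Counts per 1000000 (CPM) of each tumour's total on a log axis for the 10 genes in order of mean level. Points are single tumours, bars are exact 95% Poisson intervals, the triangle marks Cdkn1c at 0 counts in tumour 2, and the Cdk4, Cdkn1b and Cdk6 points all lie at 165 CPM or more while the other genes lie at 126 CPM or less.

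Few barcodes held a UMI of any one gene, even among the deepest. Of barcodes with at least 200 counts, Cdk4 was seen in 17.2%, 9.46% and 14.4% in tumours 1, 2 and 3, Cdk6 in 16.04%, 5.41% and 6.89%, and Cdkn1b in 11.8%, 11.5% and 10.2%. By share of these barcodes Cdkn1b was the most even of the 3, and Cdk6 the least. By CPM in the same barcodes Cdk4 was more even, at 440 ± 63.2 against 404 ± 118 for Cdkn1b (SD, n = 3 each). Each of the other 7 genes was seen in at most 4.06%, the Cdk1 share of tumour 3. At least 1 of the 10 genes was seen in 41.4%, 25.0% and 32.8% of these barcodes, against 11.9%, 7.85% and 11.4% of barcodes with 50 to 99 counts. With lineage barcodes thinned to 200 UMIs each, the Cdk4 shares came to 8.31%, 7.95% and 8.79%, and the tumours then lay close together. The thinned Cdk6 shares of 7.98%, 3.41% and 3.65% kept tumour 1 high, and those of Cdkn1b, 5.17%, 9.09% and 5.94%, put tumour 2 highest. The same 3 genes were also counted in barcodes called as other cell types. Cdk4, Cdk6 and Cdkn1b were each seen in 2 of 23 myeloid barcodes (8.70%), at a median of 380 UMIs against 309 in lineage barcodes. That share rests on 2 barcodes. It is below the unthinned lineage shares of 15.6% for Cdk4 and of 10.7% each for Cdk6 and Cdkn1b. In 42 astrocytic barcodes, at a median of 692.5 UMIs, the shares were higher, 23.8% for Cdk4 and Cdk6 and 19.0% for Cdkn1b. These barcodes were deeper than lineage ones, and their shares were not thinned. Per count, Cdk4 (374 CPM) and Cdkn1b (249 CPM) lay below their lineage levels and Cdk6 (530 CPM) above, with overlapping intervals. In 15 oligodendrocytic barcodes none of the 3 was seen. Whether such counts are free RNA or the cells' own was not tested.

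Among lineage barcodes, Cdk1 and Cdk6 mRNA tended to the cycling end, while Cdk4 and Cdkn1b showed no clear tendency. Lineage barcodes are those of at least 200 counts that passed the quality limits and carried no marker call of another cell type, 890, 88 and 876 in tumours 1, 2 and 3. They were ranked within each tumour by UMIs of S and G2/M genes, with the 10 genes left out, and the highest of 3 equal ranges (cycle-high) was set against the lowest (cycle-low), 296, 29 and 292 barcodes in each. A range is a stretch of the score, with no claim to be a cell type. The genes that form a score stayed among the genes tested. Shares of all genes called, here and for later sets made by a score, thus include genes that differ through the ranking itself. Cdk1 had 15, 0 and 29 counts in the cycle-high barcodes of tumours 1, 2 and 3, against 1, 0 and 3 in the cycle-low ones. Its CPM over the 3 tumours was thus 9.31 times as high in cycle-high barcodes (95% interval 3.39 to 35.7). Such intervals, here and below, are on counts added over the tumours and leave out the spread between mice. Cdk1 was higher in both tumours where it was seen. With all 3 tumours, Cdk1 was left out of the test by the filter on low counts. With no such filter it rose by 3.15 in log2 units (SE 0.72, edgeR quasi-likelihood test with Benjamini-Hochberg adjusted p = 0.0019), where 0.925% of genes were called higher, and among barcodes from 100 counts the difference was 0.63 (adjusted p = 0.67). Without tumour 2, Cdk1 passed the filter and rose by 3.15 (edgeR adjusted p = 8.8e-05), where 183 of 2897 genes were called higher.

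Cdk6 had 73, 3 and 35 counts in cycle-high barcodes of tumours 1, 2 and 3, against 37, 0 and 18 in cycle-low ones. That is 548, 334 and 295 CPM in cycle-high barcodes, against 325, 0 and 181 CPM in cycle-low ones, higher in 3 of 3 tumours. Its log2 difference of 0.80 (SE 0.31, n = 3 pairs of sums) did not pass the edgeR quasi-likelihood test with Benjamini-Hochberg adjusted p = 0.093. It passed with doublets kept (1.12, adjusted p = 0.0035), where 5.85% of genes were called higher. It also passed with 2 of 3 other random draws used to thin and rank the barcodes (1.22, adjusted p = 0.0055, and 1.11, adjusted p = 0.013), where 5.58% and 5.42% were called higher. It was not called under the other 9 alternatives, leaving out tumour 2 among them. Benjamini-Hochberg adjusted p, from edgeR and DESeq2, ran from 0.0035 to 0.91 over all 12. The sign was the same under all 12, with log2 differences from 0.65 to 1.22.

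Cdk4 had 67, 2 and 60 counts in cycle-high barcodes, against 49, 3 and 55 in cycle-low ones, a log2 difference of 0.03 (95% interval -0.45 to 0.52). Cdkn1b, with 43, 5 and 39 against 33, 3 and 40 counts, differed by -0.02 (95% interval -0.60 to 0.56). For both, the groups overlapped and no direction held across the alternatives. Cdkn2c had 9, 1 and 6 counts in cycle-high barcodes, against 1, 0 and 3 in cycle-low ones, 3.39 times as high in CPM (95% interval 1.09 to 13.9). It was higher in 3 of 3 tumours, and with no filter on low counts its adjusted p in the edgeR test was 0.75. The other genes were sparse: Cdk2 had 15 counts in cycle-high and 9 in cycle-low barcodes, Cdkn2d 20 and 15, Cdkn1a 3 and 2, Cdkn1c 4 and 0, and Cdkn2a had none in either. By the edgeR test 0 of the 3 genes that passed the filter (Cdk4, Cdk6 and Cdkn1b) were called, 1 at an unadjusted p under 0.05, and 0 by DESeq2. Of 2510 genes 8.8% were called by edgeR and 2.63% by DESeq2. Their median log2 difference was 0.03, beside 0.01 for all genes tested.

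Of 35 other cell cycle genes set down as their pathway (cyclins, CDC25 phosphatases, WEE1 kinases, CKS proteins, RB and E2F families, p53 and its partner), 11 passed the filter, 3 rose and 0 fell. Among all 2510 genes tested, 137 rose and 84 fell. Ccnb1, the mitotic cyclin that activates CDK1, rose by 3.13 (SE 0.59, adjusted p = 5.3e-06). Ccna2, the cyclin A of S phase and G2, rose by 2.40 (SE 0.65, adjusted p = 0.0043), and Ccnd1, a partner of CDK4 and CDK6, by 0.67 (SE 0.19, adjusted p = 0.0075), all in the edgeR test with Benjamini-Hochberg adjustment. The median over the 11 was 0.66. Because the sets were ranked by S and G2/M genes, higher Ccnb1, Ccna2 and Cdk1 mRNA was close to fixed by the ranking. Those rises are no separate evidence. Cycle-high barcodes were slightly deeper, with medians of 366, 270 and 326 UMIs against 327, 239 and 299. They had 3651, 5451 and 4025 CPM of neuronal markers, against 9798, 10575 and 10189 CPM in cycle-low ones, so a low cycle score and a high neuronal score went together. The part of either in the Cdk6 values was not tested.

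Cdk6 was also lower where neuronal markers were high, while Cdk4 showed no clear difference. The same barcodes were ranked by UMIs of 17 neuronal genes, and the highest range (neuronal-high) was set against the lowest (neuronal-low). Cdk6 had 38, 0 and 11 counts in neuronal-high barcodes of tumours 1, 2 and 3, against 76, 4 and 30 in neuronal-low ones. In CPM this was 330, 0 and 115 in neuronal-high barcodes, against 585, 514 and 265 in neuronal-low ones. Neuronal-high lay below neuronal-low in each tumour, although the values overlapped across tumours. Cdk6 fell by 0.97 in log2 units (SE 0.32, edgeR quasi-likelihood test with Benjamini-Hochberg adjusted p = 0.037). It was the 1 gene called of the 3 that passed the filter, where 6.92% of 2485 genes were called and 2.21% were lower. DESeq2 called 0 of the 3, and 1.21% of its genes. The call was lost under 11 of 12 alternatives, all 3 other random draws among them, with log2 differences from -1.56 to -0.44 and adjusted p from 0.023 to 0.95. Without tumour 2 it held, at -0.89 (adjusted p = 0.023), where 3.53% of genes were called lower.

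Cdk4 had 63, 1 and 48 counts in neuronal-high barcodes, against 64, 4 and 61 in neuronal-low ones, a log2 difference of 0.02 (95% interval -0.45 to 0.49). Cdkn1b, whose product holds neurons out of the cycle, had 36, 5 and 50 counts against 42, 4 and 31, a difference of 0.47 (95% interval -0.10 to 1.03, edgeR adjusted p = 0.46). Tumour 3 alone carried most of that difference, with 524 CPM in neuronal-high and 274 CPM in neuronal-low barcodes. Cdk2 had 1, 0 and 1 counts in neuronal-high barcodes, against 10, 0 and 6 in neuronal-low ones, 0.143 times the CPM (95% interval 0.016 to 0.608). With no filter on low counts its adjusted p was 0.48 in the edgeR test. Cdk1 went opposite ways, with 2 against 7 counts in tumour 1 and 13 against 11 in tumour 3. The inhibitors Cdkn2c (7 against 14 counts), Cdkn2d (18 against 16), Cdkn1a (3 against 9), Cdkn1c (2 against 0) and Cdkn2a (0 against 0) gave too few counts for a direction.

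Of the 35 pathway genes 10 passed the filter, and 1 fell: Ccnd1, by 0.86 (SE 0.18, edgeR adjusted p = 8.1e-05). Of all 2485 genes tested, 2.21% were called lower. The median log2 difference was -0.30 over these 10, 0.02 over the 3 tested kinase and inhibitor genes and -0.01 over all genes tested. Vascular markers, summed over 11 genes of which Cdh5, Flt1, Igfbp7, Kdr, Pdgfrb, Pecam1 and Vtn were at 0, had 69.4 to 118 CPM in neuronal-high barcodes, against 129 to 293 CPM in neuronal-low ones. The 9 astrocytic markers, all detected, had 766 to 980 CPM, against 1085 to 1159 CPM. G2/M genes had 7605, 15629 and 10572 CPM in neuronal-high barcodes, against 13308, 19805 and 17562 CPM in neuronal-low ones. The part of these in the Cdk6 difference was not tested.

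**Figure D2:**
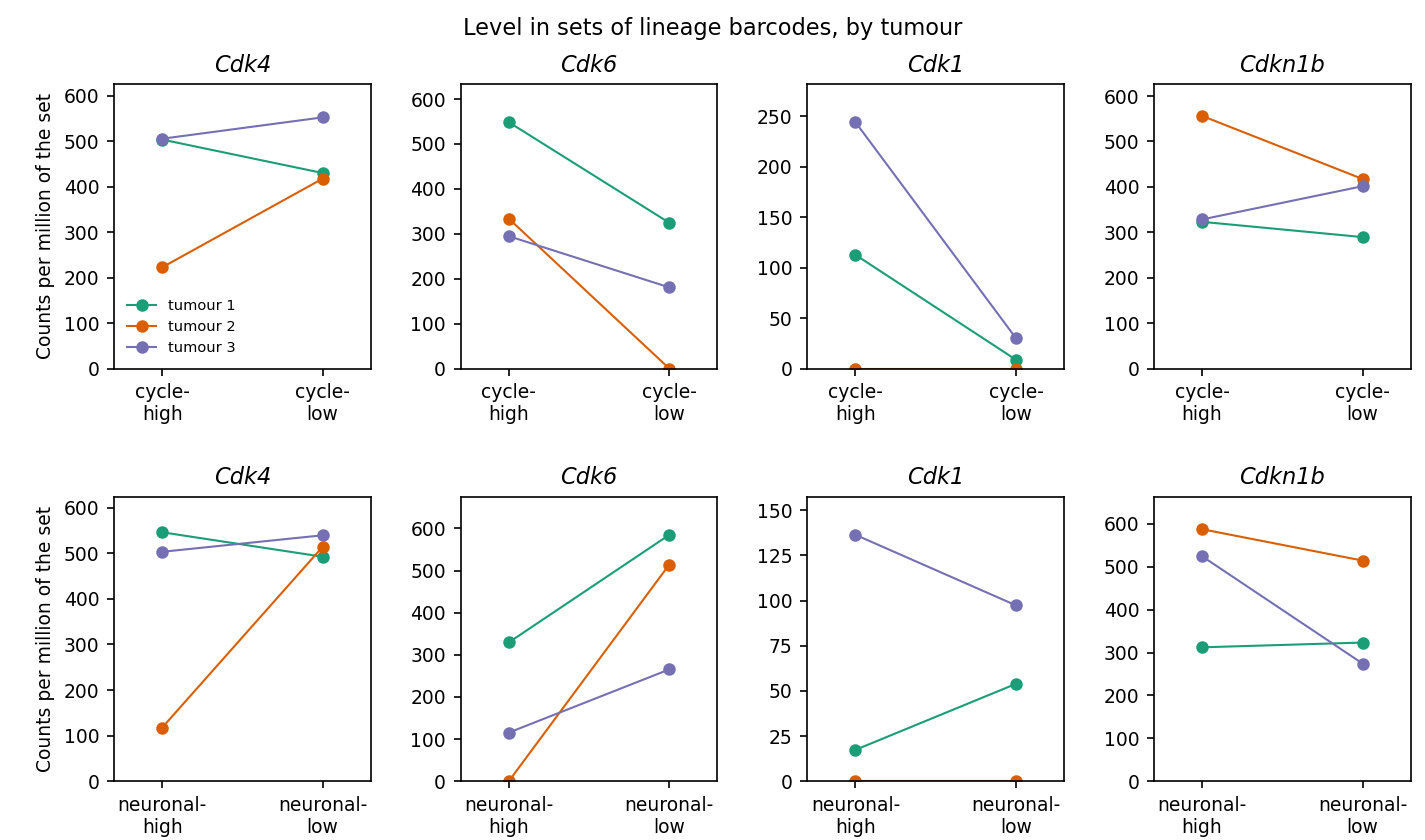
Counts per 1000000 (CPM) of the summed barcodes for Cdk4, Cdk6, Cdk1 and Cdkn1b in each tumour, with cycle-high left of cycle-low (top row) and neuronal-high left of neuronal-low (bottom row). Lines join the sums of 1 tumour. Cdk6 lines fall to the right in the top row and climb in the bottom row in all 3 tumours, and Cdk1 at 0 in tumour 2 rests on 0 counts.

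Within barcodes of 3 or more S and G2/M UMIs, Cdk1 counts were mostly in the mitosis-rich ones. S-rich barcodes (at least 2 of 3 of these UMIs from the S list) numbered 108, 7 and 77 in tumours 1, 2 and 3, and mitosis-rich ones (at most 1 of 3) 258, 42 and 321. Cdk1 had 2, 0 and 2 counts in S-rich barcodes, against 10, 0 and 31 in mitosis-rich ones, and 0.339 times the CPM over the tumours (95% interval 0.088 to 0.935). It was lower in both tumours with counts, and was left out of the test by the filter. With no filter it did not pass, at -1.69 (SE 0.89, edgeR adjusted p = 0.99). Cdk4, with 24, 1 and 9 counts against 64, 3 and 54, differed by -0.14 (95% interval -0.98 to 0.69). Cdk6, with 28, 0 and 2 counts against 60, 4 and 29, differed by -0.23 (95% interval -1.17 to 0.72). In tumour 1 Cdk6 had 624 CPM in S-rich and 515 CPM in mitosis-rich barcodes, and in tumour 3 it had 79.7 and 242 CPM, so the tumours disagreed. Cdkn1b, with 15, 0 and 6 counts against 41, 8 and 44, differed by -0.46 (95% interval -1.43 to 0.50). Cdkn2c had 1 count in S-rich and 14 in mitosis-rich barcodes, Cdkn2d 3 and 12, and Cdk2 5 and 14. Cdkn1a had 3 counts in S-rich and 6 in mitosis-rich barcodes, Cdkn1c 0 and 4, and Cdkn2a none in either. By the edgeR test 0 of 3 genes passed, 0 at an unadjusted p under 0.05 and 0 by DESeq2, where edgeR called 4.83% of 621 genes and DESeq2 2.58%. Of the 35 pathway genes only Ccnd1 and Ccnd2 could be tested, and by edgeR 0 passed, with 0 at an unadjusted p under 0.05 and 0 by DESeq2.

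Levels were also set between deep barcodes (at least 200 counts) and shallow ones (50 to 99 counts) of the same tumour, because shallow barcodes can hold free RNA and small cells. By edgeR 0 of the 8 genes tested passed, with 2 at an unadjusted p under 0.05 and 0 by DESeq2, where edgeR called 17.1% of 6480 genes and DESeq2 10.9% of those it gave an adjusted p. The median log2 difference was -0.55 over the 8, -0.15 over the 24 pathway genes tested and -0.02 over all genes. Of those pathway genes 0 passed by edgeR, with 4 at an unadjusted p under 0.05 and 0 by DESeq2. Cdk4 had 476, 367 and 477 CPM in deep barcodes of tumours 1, 2 and 3, against 798, 322 and 634 CPM in shallow ones (log2 difference -0.47, edgeR adjusted p = 0.185). Cdk6 had 474, 173 and 203 CPM in deep barcodes, against 232, 195 and 173 CPM in shallow ones (0.51, adjusted p = 0.164). In tumour 1 the kinases thus went opposite ways. Cdkn1b differed by 0.07 (95% interval -0.41 to 0.56). Cdk2 (-0.55), Cdkn1a (-0.54) and Cdkn2d (-0.65) did not pass either, with adjusted p of 0.41, 0.38 and 0.21, and Cdkn1c and Cdkn2a were too sparse to test. The lowest values were those of Cdkn2c (-1.05, adjusted p = 0.059) and Cdk1 (-0.76, adjusted p = 0.090). Cdk1 had 53.6, 21.6 and 141 CPM in deep barcodes, against 168, 59.3 and 127 CPM in shallow ones, so tumour 3 went the other way. Other cell types' markers, all detected, also differed: vascular markers had 386, 1058 and 387 CPM in deep barcodes, against 216, 178 and 199 CPM in shallow ones, and astrocytic markers 2057, 1274 and 1122 CPM, against 1023, 670 and 1012 CPM. Erythroid markers had 100.8, 302 and 319 CPM in deep barcodes, against 566, 627 and 1095 CPM in shallow ones. The part of these in the gene values was not tested. Without tumour 2, Cdkn2c (-1.18, adjusted p = 0.011), Cdkn1a (-1.05, adjusted p = 0.043) and Cdkn1c (-1.59, adjusted p = 0.040) passed the edgeR test as lower in deep barcodes, where 13.5% of genes were called lower.

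**Figure D3:**
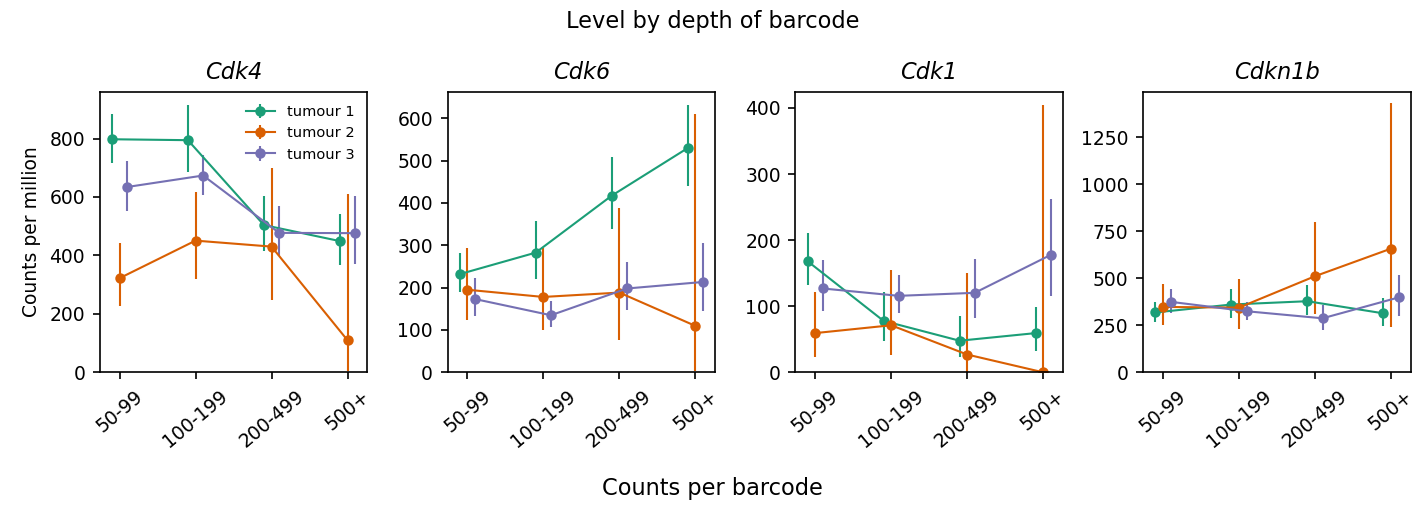
Counts per 1000000 (CPM) of Cdk4, Cdk6, Cdk1 and Cdkn1b in barcodes of 50 to 99, 100 to 199, 200 to 499 and 500 or more counts, per tumour, with exact 95% Poisson intervals. In tumour 1 Cdk6 runs 232, 283, 417 and 530 CPM from shallow to deep while Cdk4 falls to 449 in the deepest, against 798 in the shallowest, and in tumour 3 Cdk6 stays between 135 and 213.

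p21 mRNA stood high in the few vascular barcodes, a pattern that was chosen after its values were seen and carries no test. A barcode was called as another cell type where 2 or more genes of that type's list gave 3 or more UMIs together, which gave 42 astrocytic, 23 myeloid, 15 oligodendrocytic, 10 vascular, 3 erythroid and 1 neutrophil barcodes. Cdkn1a had 15 counts in 3 of the 10 vascular barcodes, 1377 CPM (exact 95% Poisson interval 771 to 2272), against 16 counts in 15 of 1854 lineage barcodes, 22.7 CPM (13.0 to 36.8). In tumour 1 its vascular counts were 8, in 2 of 5 barcodes, and in tumour 3 none of the 4 vascular barcodes had any. In tumour 2 all 7 came from the 1 vascular barcode, which held 3172 UMIs, 33 of them from vascular markers. That barcode is far above the median of 560 UMIs for vascular barcodes and was not called a doublet, although Scrublet called 0 doublets in tumour 2 as a whole. It also held 7 of the 8 Cdkn1a counts in deep barcodes of tumour 2.

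Cdk6 had 17 counts in 10 of 42 astrocytic barcodes, 530 CPM (309 to 848), against 237 counts in lineage barcodes, 336 CPM (294 to 381), so the intervals overlapped. Of the 17, 16 came from tumour 1. Cdk4 had 374 CPM in astrocytic barcodes (193 to 653), 214 in myeloid (58.2 to 547) and 184 in vascular ones (22.2 to 663), against 503 in lineage barcodes (452 to 558). The 15 oligodendrocytic barcodes held 0 counts of Cdk4 and of Cdk6, which allows up to 390 CPM. Cdkn1b, at 249 CPM in astrocytic barcodes (108 to 491) and 354 in lineage barcodes (312 to 401), could not be told apart between them. The 3 erythroid barcodes held 3 Cdk4 counts and the neutrophil one 2 Cdkn1b counts, too few barcodes to compare. Cdkn2a had 0 counts in all 1854 lineage barcodes, which allows up to 4.25 CPM.

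**Figure D4:**
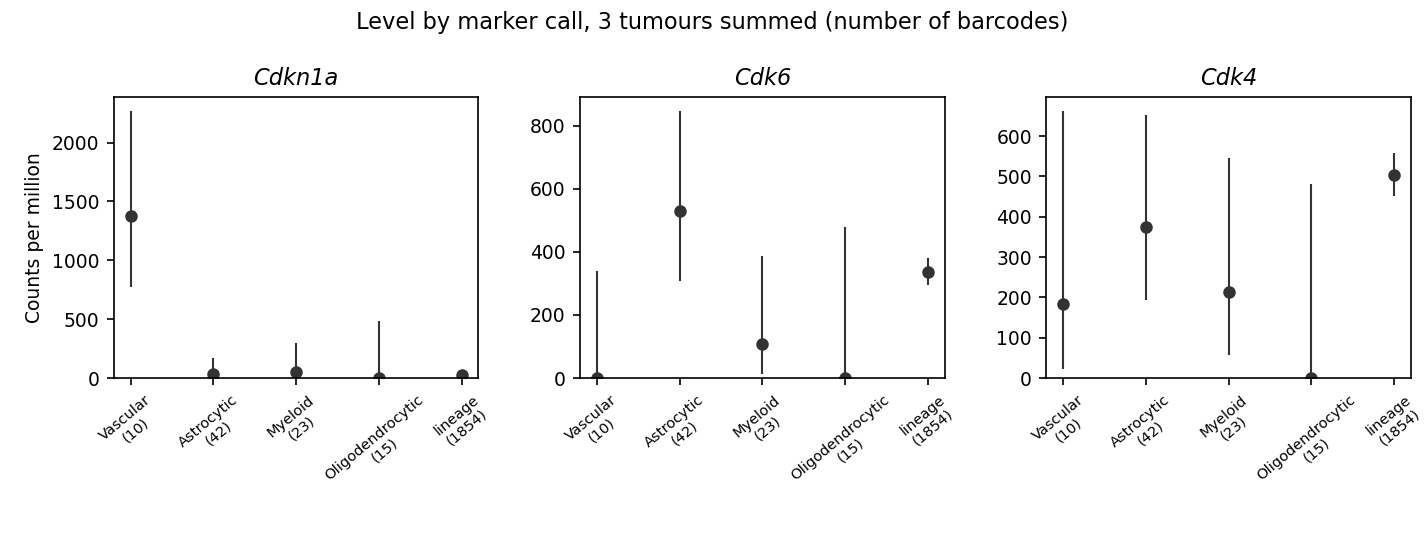
Counts per 1000000 (CPM) of Cdkn1a, Cdk6 and Cdk4 in barcodes called by markers and in lineage barcodes, with the tumours summed; the number of barcodes is in brackets. Bars are exact 95% Poisson intervals, and Cdkn1a at 1377 CPM in vascular barcodes stands above its 22.7 CPM in lineage barcodes.

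Few barcodes held both genes of a pair, and each gene alone was seen in a low share. Of 1854 lineage barcodes thinned to 200 UMIs, 10 held both Cdk4 and Cdk6 where the product of their shares in each tumour gives 8.95. Both Cdk4 and Cdkn1b were in 14 (product 9.03), and both Cdk6 and Cdkn1b in 8 (product 5.84). Each of these pairs lay above its product, whereas Cdk4 and Cdk1 were both in 1 barcode (product 2.34). Whether any pair differed from its product was not tested. As a description of likeness, summed levels in 18 bins of 54 to 143 barcodes (cycle range by neuronal range, in tumours 1 and 3) were correlated for 582 genes of at least 200 counts. The bins share libraries and depth, and every r below is across bins. Cdk6 was most like Smarcc1 (Pearson r = 0.81), Hnrnpu (0.75) and Jun (0.72). Cdkn1b was most like Kmt2e (0.84), Serinc1 (0.73) and Bclaf1 (0.72). Cdk4 had weaker neighbours, Smc6 (0.70), 1700020I14Rik (0.62) and Tceb2 (0.60).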

How the data were processed

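The authors deposited whole-number UMI counts per gene and barcode for each tumour, with no normalisation recorded. STAR, Cell Ranger and the build GRCh38 are named, without versions or roles, per the submitters' processing notes. The gene symbols are those of mouse, so no coordinates of the authors were used, and promoters come from RefSeq. Every deposited barcode holds at least 50 genes. Samples were separate mice, per the labels.

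Sets used barcodes with 200 UMIs and 100 genes or more and a mitochondrial share of 10% or less, with Scrublet calls (scanpy 1.11.5, expected rate 6%) removed, 15, 0 and 18 in tumours 1, 2 and 3. UMIs were thinned to 200 to rank barcodes, with ties broken at random, and the raw counts of each set were added up within its tumour. Genes used to rank or divide the barcodes stayed in these sums and in the shares of genes called. The sums were tested with edgeR 4.0.16 (quasi-likelihood, TMM, filterByExpr, tumour as a block because both sets come from 1 animal, Benjamini-Hochberg over all genes tested, threshold 0.05), with limma 3.58.1 and R 4.3.3. DESeq2 1.42.0 and the other alternatives are given at the end. The procedure was tested on simulated sums with the same fixed spread for all genes, which need not be that of the data. Of 2-fold changes it called 23.3% between cycle, 28.7% between neuronal, 51.7% between S and mitosis and 56.25% between depth sets. Of 4-fold changes it called 85.9%, 93.3%, 100% and 94.7%. A 2-fold difference could thus often be missed. The changed genes were drawn from those past the filter on low counts. These shares therefore do not cover sparse genes that the filter left out, such as Cdk1 between cycle sets. Intervals on counts, shares and ratios of counts are exact Poisson or binomial at the 95% level. Those on log2 differences are normal approximations at the 95% level, with an SE worked back from the edgeR test statistic. With 3 pairs of sums they may be too narrow.

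The genes, the lists and the comparisons were chosen with earlier results of these data known. All 10 genes are named in each comparison, and of 35 pathway genes those past the threshold. The p-values cover the spread between 3 mice of 1 group.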

Additional observations from a re-analysis of the deposited data

How the results depend on the processing

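DESeq2 called 66, 23, 16 and 269 genes between cycle, neuronal, S against mitosis and depth sets, against 221, 172, 30 and 1109 by edgeR. With no replicate block for the tumour, the counts were 118, 55, 18 and 90. Leaving out each tumour gave 37 to 312, 9 to 262, 0 to 49 and 0 to 1693 genes, with 0 for S against mitosis sets without tumour 1 and for depth sets without tumour 3. With no filter on low counts, 98 genes were called between neuronal and 19 between S and mitosis sets. Barcodes from 100 counts gave 38 between neuronal sets, and deep barcodes from 500 counts gave 258. The mean share of barcodes with any of the 10 genes was 33.1%, against 22.7% thinned to 200 UMIs and 20.6% from 100 counts.

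The differences below turned sign under 1 alternative or more, and the ranges without each tumour hold both signs. None was called in the analysis as reported, and Cdkn1a between depth sets was called without tumour 2. Between cycle sets, Cdk4 was -0.0050 by DESeq2, -0.033 and -0.051 with other random draws (an alternative chosen after seeing the data) and -0.198 to 0.095 without each tumour in turn. Cdkn1b was 0.051 by DESeq2, 0.015 unfiltered, 0.0080 with no block and -0.111 to 0.208 without each tumour, and Cdkn2d was -0.226 from 100 counts. Between neuronal sets, Cdk4 was -0.144 by DESeq2, -0.056 with no block, -0.108 and -0.136 with other draws and -0.246 to 0.075 without each tumour. Between S and mitosis sets, Cdk4 was 0.403 from 100 counts, 0.408 with doublets kept, 0.252 with no mitochondrial limit and 0.286, 0.158 and 0.093 with other draws. In the same comparison Cdk6 was 0.125 without tumour 3, but kept its sign without tumour 2, at -0.157. Between depth sets, Cdkn1a was 0.189 from 500 counts and -1.05 to 0.085 without each tumour, and Cdkn1b was -0.0028 unfiltered and -0.060 to 0.312 without each tumour. Their causes were not tested. The Cdk6 call between neuronal sets was lost with no replicate block (-0.997, adjusted p = 0.37 by edgeR), as under 10 other alternatives.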
